A study of Gossypium barbadense and Gossypium hirsutum with 72 samples.

Results

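miR529 and miR535 are plant microRNA families whose mature sequences resemble miR156. All rows of the small RNA count table named miR529 or miR535, with or without a suffix, were taken, which gave 5 of 4062 names, of which 712 were known miRNAs. The miR529 family held 3 names (miR529, miR529-5p and miR529d) and the miR535 family held 2 (miR535 and miR535a). Small RNAs were read from shoot apices of 4 field-grown cotton lines at 3 stages, in 12 groups of 3 libraries. In *G. barbadense* (Gb), Hai1 is the normal-branch line (WT) and Xinhai16 the nulliplex-branch line (np), in which flowers arise on the main stem with no fruiting branch between. In *G. hirsutum* (Gh), Huazhong 94-3130 is the normal-branch line and 3798 the nulliplex one. The digit in a group name gives the stage: seedling (1, with 2 leaves in all lines), pre-squaring (2, with 8 leaves in Gb2WT, 6 in Gb2np, 6 in Gh2WT and 5 in Gh2np) and squaring (3, with 11 leaves in Gb3WT, 9 in Gb3np, 8 in Gh3WT and 12 in Gh3np). Each branch type in each species is 1 line, so branch type and line cannot be told apart at any stage, nor leaf number from them at the later stages. The leaf numbers are those of the sample labels, and the study's methods give others for some groups.

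miR156 and the closely similar miR157 guide the cleavage and repression of transcripts of SPL transcription factors, which drive the change from juvenile to adult growth and flowering. Both are abundant in young plants and decline with age, and miR172, which represses AP2-type flowering repressors, typically increases as they decline. In rice, miR529 and miR535 also act on SPL genes, and changing their levels alters panicle branching.

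The 36 libraries held 754812 to 4329247 miRNA reads, with 2206936 to 4329247 in seedling libraries and 754812 to 1376078 later, and no pair of libraries was identical. miR157 alone took 58.6% to 65.8% of the miRNA reads of the Gb seedling libraries and 35.7% to 47.0% of the Gh ones, against 0.482% to 10.2% in the 24 later libraries. A level per library total therefore depends on miR157, and stage comparisons of miR535 are given below on more than 1 scale. In the mRNA libraries of the same groups, the proliferation gene PCNA2 (CotAD_04662) had reads in 36 of 36 libraries, with a median of 17.6 RPKM in seedlings, 40.3 at pre-squaring and 39.8 at squaring, and the floral gene SEP3 (CotAD_35367) in 0 of 12 seedling libraries and in all later ones. HB-8 (CotAD_75643), a meristem and vascular gene, had reads in 36 of 36, with medians of 1.36, 3.79 and 2.56 RPKM in the same order. SVP (CotAD_47245), a gene of the vegetative apex, had reads in 35, with medians of 1.37, 12.6 and 33.9 RPKM. Of the 2 green-leaf genes, CA1 (CotAD_07955) stood at 104 to 1357 RPKM in seedling libraries and at 12.8 to 60.6 later, and GGR (CotAD_07016) at 2.12 to 12.4 and at 1.69 to 34.6. The apex genes and GGR were thus lower and CA1 higher in seedlings, by their medians, and the part of tissue makeup in the stage differences below was not tested.

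The 2 names of miR535 divided exactly by species. miR535a had 356336 reads, in all 18 Gb libraries and in 0 of 18 Gh libraries. miR535 had 371964 reads, in all 18 Gh libraries and in 0 of 18 Gb libraries. Of the known names, 2 (miR535a and miR2118-5p) had reads in all Gb and no Gh libraries, and 3 (miR535, miR2118 and miR3514-5p) showed the reverse. Reads of both species were matched without mismatch to the *G. hirsutum* genome and then named against miRBase, and the names alone were compared here, so whether miR535 and miR535a stand for 1 molecule was not tested. Their sum, called miR535 from here on, had 728300 reads and was present in every library, with 4095 to 55196 reads. It ranked between 6 and 26 among the 205 to 304 known families with reads in a library.

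Levels of miR535 are given as RPM, reads per 1000000 miRNA reads of the library. The 95% Wilson interval of a single library, which covers counting error only, was within 0.825% to 3.06% of its level, far narrower than the spread between replicates. In Gb seedlings the 3 libraries of Gb1WT stood at 10368, 9558 and 11718 RPM. Those of Gb1np stood at 10164, 9698 and 8886 RPM. The branch types overlapped. In Gh seedlings the values were higher, 17418, 15751 and 21513 RPM in Gh1WT. They were 14079, 14074 and 15613 RPM in Gh1np, just below the lowest Gh1WT library.

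At the pre-squaring stage miR535 stood at 16302, 12930 and 13261 RPM in Gb2WT. It stood at 6295, 10239 and 7964 RPM in Gb2np, and the ranges of the 2 Gb groups did not overlap. The share of all families that separate 2 groups in this way was not computed, here or below. The ranges of the *G. hirsutum* groups did overlap: Gh2WT held 9079, 7263 and 12623 RPM. Gh2np held 6450, 10278 and 6684 RPM.

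At squaring, the Gb3WT libraries held 11499, 13394 and 13306 RPM. The Gb3np libraries held 3278, 4204 and 3129 RPM, the 3 lowest values of all 36 libraries. Gh3WT and Gh3np overlapped, with Gh3np the most scattered of all groups. Gh3WT held 9500, 8974 and 7024 RPM. Gh3np held 16307, 11873 and 6221 RPM.

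Ordered by mean, Gh1WT was highest at 18227 ± 2965 RPM (SD, n = 3) and Gb3np lowest at 3537 ± 582 RPM (SD, n = 3). The 10 groups between them ran from 14589 ± 887 in Gh1np to 7804 ± 2146 in Gh2np, and each of these overlapped its neighbour in the order. Only the first step, from Gh1WT to Gh1np, and the last, from Gh2np to Gb3np, separated groups whose libraries did not overlap.

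**Figure D1:**
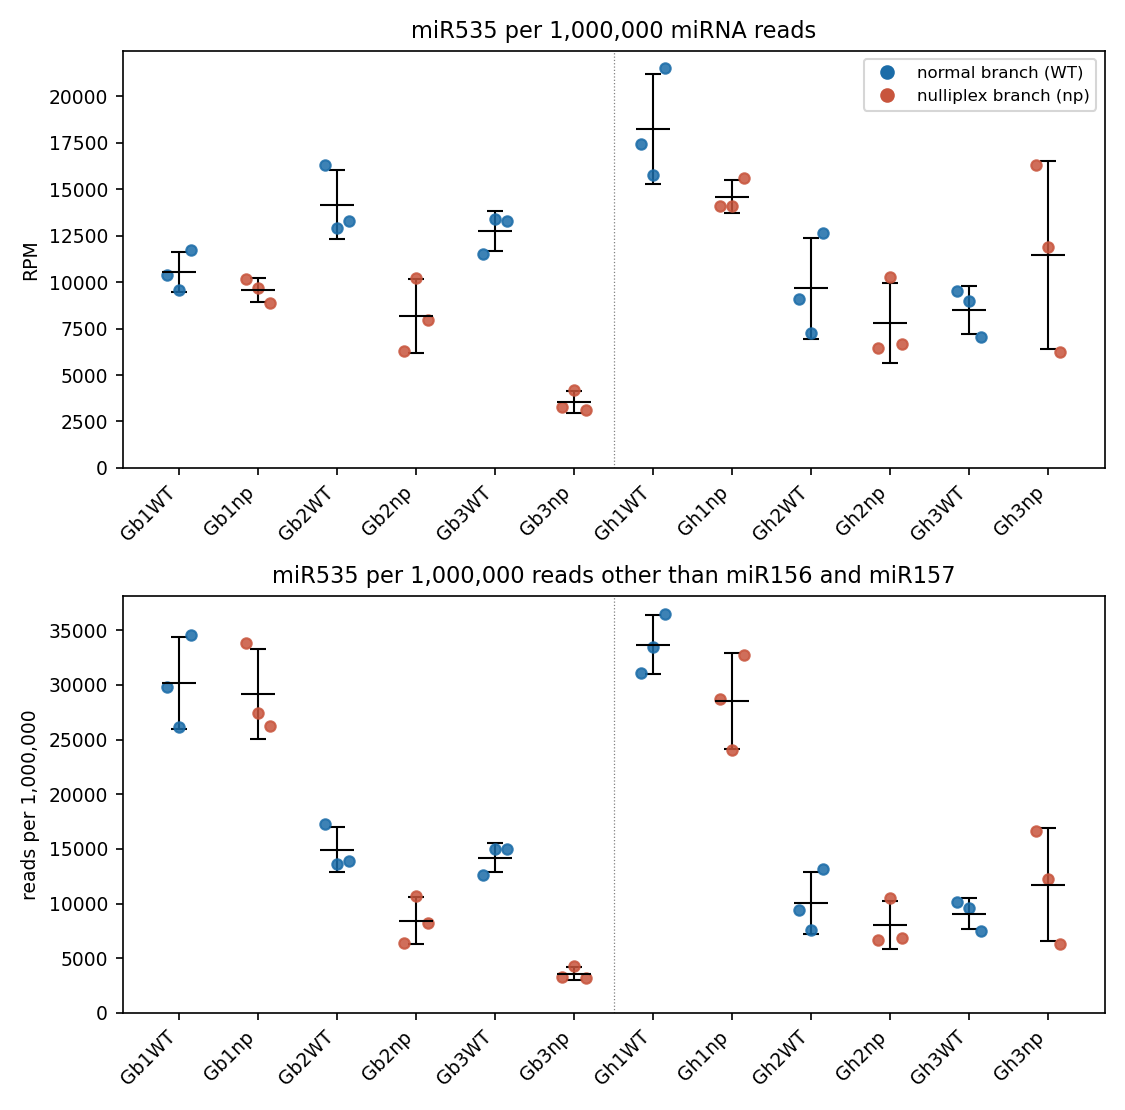
miR535 in each of the 36 libraries (points, 3 a group, blue for normal branch and red for nulliplex branch), with the group mean and SD in black. The upper axis gives reads per 1000000 miRNA reads and the lower axis reads per 1000000 miRNA reads other than miR156 and miR157. The Gb3np libraries are the lowest in both (3129 to 4204 RPM above), and the 12 seedling libraries stand above all others only in the lower plot. The lower scale raises every remaining family most in seedlings.

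The seedling and pre-squaring stages were compared in each line to ask how miR535 moved as the plants aged. In edgeR's fit, which scales libraries by TMM so that 1 dominant miRNA does not set the scale, miR535 fell in Xinhai16 from Gb1np to Gb2np by 2.22 on the log2 scale (SE 0.18, edgeR quasi-likelihood adjusted p = 0.000906). A miRNA was called changed at an adjusted p under 0.001 with an absolute log2 change over 1, and 6.2% of the 387 families tested in this comparison were called. The value was -1.57 in Hai1 (SE 0.17, adjusted p = 0.00146), -1.86 in Huazhong 94-3130 (SE 0.23, adjusted p = 0.00373) and -1.90 in 3798 (SE 0.23, adjusted p = 0.00217), below 0 in all 4 lines but past the threshold in 1, and turned above 0 in Hai1 on library totals. Of the families tested, 10.6% were called in Hai1, 0.8% in Huazhong 94-3130 and 6.9% in 3798. The mean over the 4 lines, tested as 1 contrast in a fit of all 36 libraries, fell by 1.92 (SE 0.11, adjusted p = 1.05e-13), where 11.9% of 933 families were called. On library totals that mean was -0.41 (SE 0.12, adjusted p = 0.0126) and with limma on log2(RPM + 1) -0.43 (adjusted p = 0.00661), neither past the threshold. The call in Xinhai16 was lost when any 1 of its 6 libraries was left out (adjusted p = 0.00401 to 0.00892).

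These directions depend on the scale. Scaled to library totals, miR535 was higher in Gb2WT than in Gb1WT, with a log2 change of 0.43 (SE 0.13, adjusted p = 0.0372), and the change from Gb1np to Gb2np was -0.23 (SE 0.20, adjusted p = 0.385). In *G. hirsutum* it stayed below 0 on library totals, at -0.92 (adjusted p = 0.0334) in Huazhong 94-3130 and at -0.90 (adjusted p = 0.0178) in 3798. The median log2 change of the known families, under TMM minus that on library totals, was -1.99 in Hai1 and -1.963 in Xinhai16, and -0.91 and -0.94 in the Gh lines. Set against that median under TMM, miR535 was at -1.42 in Hai1, -2.02 in Xinhai16, -1.76 in Huazhong 94-3130 and -1.53 in 3798. In a fit of 1 line, centring on the median removes the scale, so these values are nearly the same on library totals by construction. The mean over the 4 lines, from the fit of all 36 libraries, still moved with the scale after centring. It was at -1.88 under TMM and -1.37 on library totals.

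A further scale, chosen after seeing the data, leaves miR156 and miR157 out of the total. Per 1000000 of the remaining reads, miR535 stood at 24040 to 36488 in the 12 seedling libraries, with a median of 30424. It stood at 3148 to 17302 in the 24 later libraries, with a median of 9860. No later library reached a seedling one. The reads left out were 41.0% to 70.0% of the seedling libraries and 0.590% to 11.1% of the later ones. This scale therefore raises every remaining family most in seedlings, and the share of families that separate in this way was not computed. In bulk apices, fewer cells that hold a miRNA and less of it per cell cannot be told apart.

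From pre-squaring to squaring, miR535 passed the threshold in none of the 4 lines in edgeR's quasi-likelihood test. The log2 change was -0.27 in Hai1 (SE 0.12, adjusted p = 0.186), -0.94 in Xinhai16 (SE 0.19, adjusted p = 0.0353), -0.70 in Huazhong 94-3130 (SE 0.20, adjusted p = 0.0416) and 0.13 in 3798 (SE 0.27, adjusted p = 0.951). The families called were 1.43%, 0%, 1.75% and 0% of those tested, in the same order. The mean over the lines was -0.40 (SE 0.11, adjusted p = 0.0211), with 0.643% of 933 families called.

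**Figure D2:**
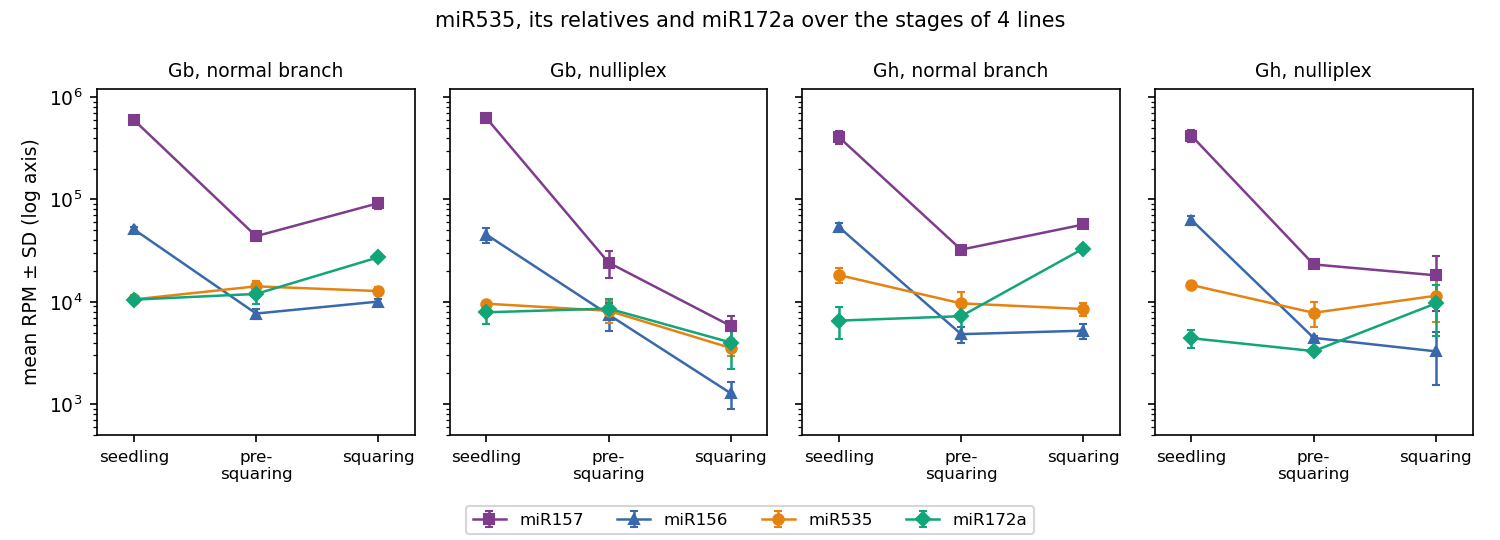
Mean RPM ± SD over 3 libraries (log axis) of miR535, its relatives miR156 and miR157, and miR172a at the seedling, pre-squaring and squaring stage of each line. On this scale miR157 and miR156 drop steeply between the first and second stage in each line while miR535 stays within 3537 to 18227 RPM. RPM in seedlings depends on the large share of miR157. Under TMM, miR535 also fell at that step in each line, with log2 changes of -2.22 to -1.57.

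From seedling to pre-squaring the relatives had larger log2 changes than miR535, a difference between families that was not tested. miR157, the most abundant of these families, fell in all 4 lines, with log2 changes of -6.68 to -4.56 in edgeR's fit (adjusted p = 5.85e-05 to 0.000498). miR156 also fell in all 4 lines, with log2 changes of -4.82 to -4.39 (adjusted p = 9.79e-05 to 0.000698). On library totals both were still called in all 4 lines, with smaller changes of -4.69 to -3.65 for miR157 and -3.83 to -2.60 for miR156. miR172 was read from miR172a alone, since a second name of that family held nearly the same reads in several libraries. miR172a passed the threshold in none of the 8 single stage comparisons, with 5 at an adjusted p under 0.05. At pre-squaring against seedling it was at -1.78 in Hai1 (adjusted p = 0.00112) and -1.80 in Xinhai16 (adjusted p = 0.00170), values that became 0.18 and 0.12 on library totals. It was at -0.82 in Huazhong 94-3130 (adjusted p = 0.181) and -1.36 in 3798 (adjusted p = 0.00180), and on library totals at 0.14 and -0.42. The mean over 4 lines was -1.49 (adjusted p = 4.72e-08), past the threshold under TMM, but 0.0076 on library totals (adjusted p = 1.00). From pre-squaring to squaring it was at 1.10 in Hai1 (adjusted p = 0.00547), -0.88 in Xinhai16 (adjusted p = 0.135), 1.64 in Huazhong 94-3130 (adjusted p = 0.0119) and 1.11 in 3798 (adjusted p = 0.588). Whether this step differed between branch types was not tested for miR172a.

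Nulliplex and normal branch were then compared at each stage. miR535 fell in Gb3np against Gb3WT by 1.35 on the log2 scale (SE 0.13, adjusted p = 0.000837), a level 2.56-fold lower in TMM-scaled counts. In that comparison 13.8% of 398 families were called, 41 of them lower and 14 higher. Scaled to library totals the value was -1.85 (adjusted p = 0.000736). The call was lost when any 1 of the 6 libraries was left out (log2 change -1.42 to -1.27, adjusted p = 0.00281 to 0.00789).

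The Gb3np libraries differed from Gb3WT in much else. miR166 took 56.5% to 61.8% of their reads, against 23.5% to 24.6% in Gb3WT, and 205 to 228 known families had reads, against 268 to 296. The median known family was at -0.50 in Gb3np against Gb3WT under TMM and at -0.99 on library totals. Against that median, miR535 stood at -0.85 under TMM. In the mRNA libraries of the same groups, some of the 6 tissue genes differed as well. The share of all genes that separates these groups was not computed, so the genes are given as values only. HB-8 stood at 1.19 ± 0.45 RPKM in Gb3np against 3.40 ± 0.93 in Gb3WT, and SEP3 at 7.54 ± 2.69 against 2.26 ± 0.68 (SD, n = 3). GGR stood at 13.7 ± 2.08 RPKM in Gb3np against 6.87 ± 2.12, and PCNA2 at 48.5 ± 7.58 against 32.2 ± 7.15 (SD, n = 3), while SVP and CA1 overlapped. The part of these shifts in the fall of miR535 was not tested.

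No other branch comparison of miR535 passed the threshold in edgeR or DESeq2, and edgeR called 0% of families in each of them. The log2 change was -0.02 in Gb seedlings (SE 0.20, adjusted p = 0.995), a value whose sign changed with the setting. It was -0.62 at the Gb pre-squaring stage (SE 0.18, adjusted p = 0.0929), where the unadjusted p was 0.0168. Of the 371 families tested in that comparison, 97 had an unadjusted p under 0.05 in edgeR. In *G. hirsutum* it was -0.34 in seedlings (SE 0.20, adjusted p = 0.767), -0.30 at pre-squaring (SE 0.19, adjusted p = 0.626) and 0.66 at squaring (SE 0.29, adjusted p = 0.172).

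The branch difference at squaring was not alike in the 2 species. The log2 change in Gb minus that in Gh was -1.91 (SE 0.31, adjusted p = 0.000314) in the fit of all 36 libraries, where 1.07% of 933 families were called. Leaving out 1 replicate number from all groups gave -2.07 to -1.83 with an adjusted p of 0.00216 to 0.0782, so the call rested on all 3. At the seedling stage the same difference was 0.30 (SE 0.31, adjusted p = 1.00, 0% of families called) and at pre-squaring it was -0.37 (SE 0.31, adjusted p = 1.00, 0.107% called). Over the 3 stages together, the nulliplex line was at -0.61 in Gb (SE 0.13, adjusted p = 0.00144, 2.36% of families called) and at 0.05 in Gh (SE 0.13, adjusted p = 1.00, 0.857% called), the latter with a sign that changed with the setting.

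In Gb3np the relatives were lower as well. miR157 fell by 3.49 (SE 0.18, adjusted p = 0.000311) and miR156 by 2.50 (SE 0.21, adjusted p = 0.000837). miR172a was at -2.28 (SE 0.29, adjusted p = 0.00140), not past the threshold. These changes were larger in size than that of miR535, in the same 6 libraries, and the difference between families was not tested. Between the species, the difference of the branch effects at squaring was -1.99 for miR157 (adjusted p = 0.000411) and -2.003 for miR156 (adjusted p = 0.000776), next to -1.91 for miR535. For miR172a it was -0.59 (adjusted p = 0.863), with Gh3np against Gh3WT at -1.59 (adjusted p = 0.0474). In that Gh comparison edgeR put miR157 at -1.40 (adjusted p = 0.0520) and miR156 at -0.41 (adjusted p = 0.503). miR535 was at 0.66 there (adjusted p = 0.172), opposite in sign to these relatives. Over the 3 stages together, miR172a fell in the nulliplex line of Gh by 1.07 (adjusted p = 0.000548) and was at -0.89 in that of Gb (adjusted p = 0.00161), the latter not past the threshold under TMM but past it on library totals (-1.22). The call in Gh was lost on leaving out any 1 replicate number (-1.21 to -0.96, adjusted p = 0.00201 to 0.0958).

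**Figure D3:**
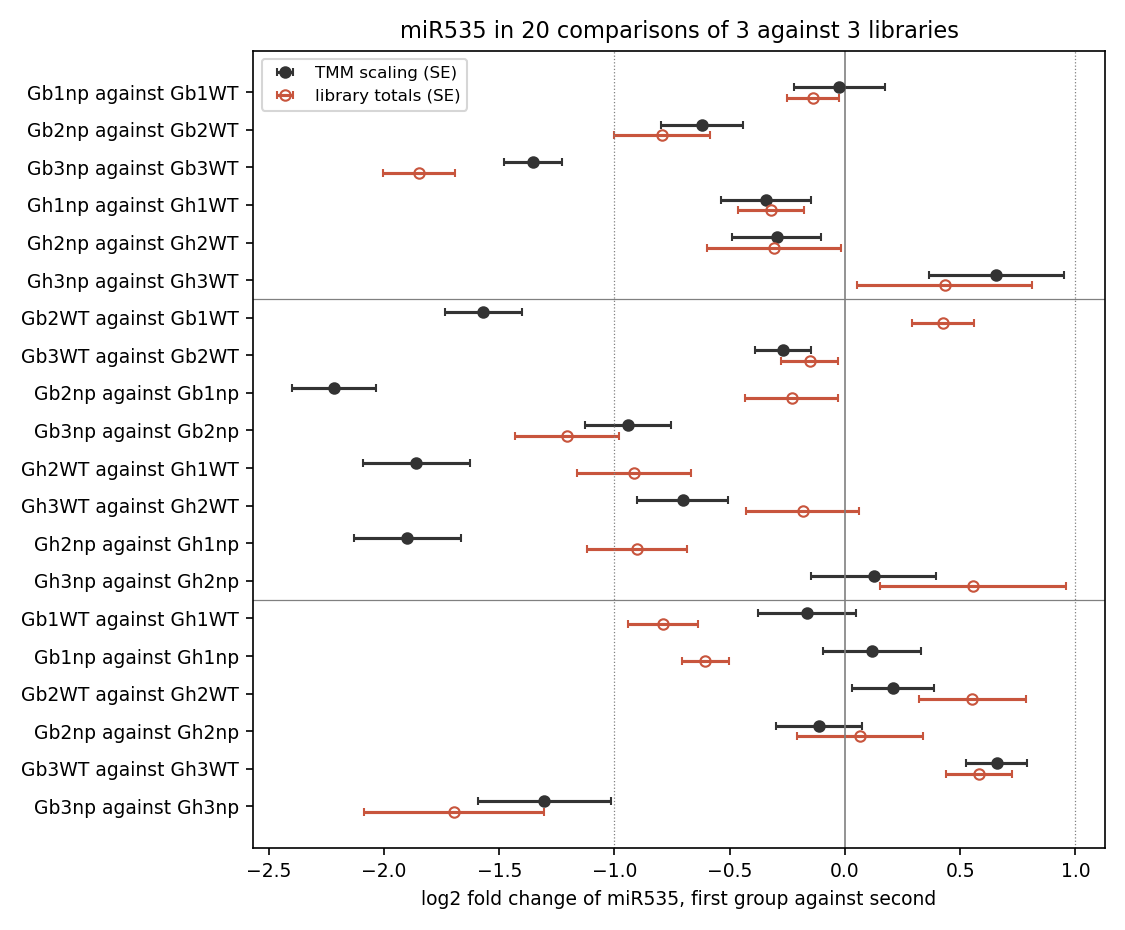
log2 fold change of miR535 with its SE in the 6 branch, 8 stage and 6 species comparisons, each of 3 against 3 libraries. Filled points are scaled by TMM and open points by library totals, and the dotted lines mark a log2 change of 1 in either direction. The scales part most in the 4 seedling to pre-squaring comparisons, where Gb2WT against Gb1WT goes from -1.57 to 0.43.

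Comparing the species at the same stage and branch type, edgeR called miR535 in 0 of 6 comparisons, with 2 at an unadjusted p under 0.05, and DESeq2 called 1 of 6. DESeq2 called far more families than edgeR in these comparisons, as counted in the last paragraph. Of the families tested, edgeR called 0.794% in Gb2WT against Gh2WT, 1.96% in Gb2np against Gh2np and 0% in the other 4. Both low p values were at squaring and opposite in sign. In edgeR's test, 181 of 451 families had an unadjusted p under 0.05 in Gb3WT against Gh3WT, and 133 of 359 in Gb3np against Gh3np. miR535 was at 0.66 in Gb3WT against Gh3WT (SE 0.13, adjusted p = 0.0146). It was at -1.30 in Gb3np against Gh3np (SE 0.29, adjusted p = 0.0202), the comparison that DESeq2 called (adjusted p = 2.11e-05). The mean over all 6 pairs was -0.09 (SE 0.09, adjusted p = 1.00) under TMM, where 8.9% of 933 families were called. On library totals the seedlings differed more, at -0.79 in the normal-branch lines (adjusted p = 0.0104) and -0.61 in the nulliplex lines (adjusted p = 0.00587), against -0.16 and 0.12 under TMM.

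Within a library, the number of miR535 reads can be set against those of its relatives with no scaling. This ratio was examined after the levels were seen and is given as a description. In seedlings there were 1.76 ± 0.15 miR535 reads per 100 miR157 reads in Gb1WT and 1.54 ± 0.10 in Gb1np (SD, n = 3). The Gh seedlings held more, 4.61 ± 1.35 in Gh1WT and 3.51 ± 0.39 in Gh1np (SD, n = 3). The lowest Gh library, at 3.17, was above the highest Gb library, at 1.92.

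At pre-squaring the 4 lines overlapped, with means of 29.8 in Gh2WT, 32.4 in Gb2WT, 34.3 in Gb2np and 34.3 in Gh2np. At squaring they divided by branch type in both species. The normal-branch libraries held 13.1 to 14.3 miR535 reads per 100 miR157 reads in Gb3WT and 12.6 to 16.8 in Gh3WT. The nulliplex libraries held 56.2 to 65.0 in Gb3np and 41.5 to 95.9 in Gh3np. In Gb3np this went with fewer reads of both, miR157 being at 5804 ± 1463 RPM against 91926 ± 10767 in Gb3WT (SD, n = 3). In Gh3np miR157 stood at 18144 ± 9974 RPM against 56928 ± 1448 in Gh3WT, and miR535 at 11467 ± 5055 against 8500 ± 1305 RPM (SD, n = 3). In edgeR neither was called in that comparison, with miR157 at -1.40 (adjusted p = 0.0520) and miR535 at 0.66 (adjusted p = 0.172). Any family that falls less than miR157 has a higher ratio in the nulliplex lines, and the share of families that divide in this way was not computed.

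Against miR156, miR535 had fewer reads in each of the 12 seedling libraries, at most 40.0 per 100. It had more in 23 of the 24 later libraries. The exception was 1 Gb2np library, at 98.4 per 100, and the highest ratio was 546 per 100 in Gh3np. miR157 had more reads than miR535 in all 36.

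**Figure D4:**
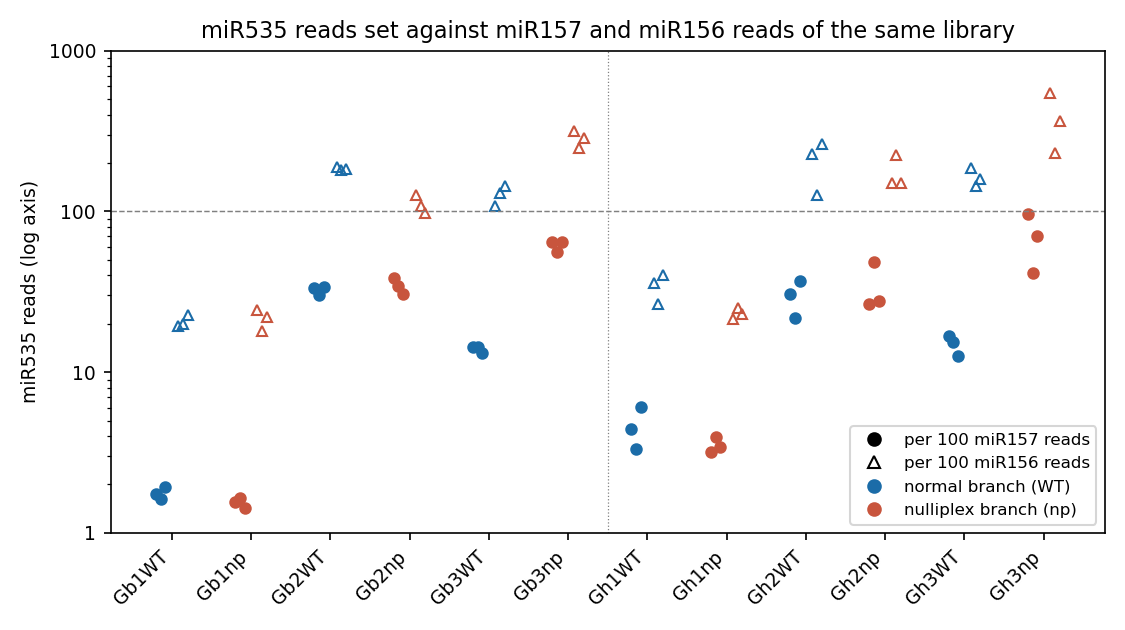
Reads of miR535 per 100 reads of miR157 (filled circles) and of miR156 (open triangles) in each library, on a log axis, with a dashed line at equal numbers. Blue is normal branch and red nulliplex. Per 100 miR157 reads, the ratio stands at 1.43 to 6.03 in seedlings and at 12.6 to 95.9 later, and at squaring the red circles lie above the blue ones in both species.

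miR529 was sparse and uneven. Its 3 names together had 45362 reads, 43168 of them in the row named miR529, and 11 of the 36 libraries had none, which allows up to 0.767 to 3.15 RPM in those libraries. In 21 libraries it had 17 to 91 reads, or 14.8 to 86.1 RPM. It exceeded 1000 reads in 4 libraries, all of Gb seedlings.

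In Gb1WT the row miR529 held 15831, 13175 and 0 reads, which is 4021 and 3855 RPM in the first pair of libraries. In Gb1np it held 0, 13385 and 0 reads, which is 3699 RPM in the second library. The first Gb1np library held 2000 reads of miR529d, a name with no read in any other library. Between replicates, the family moved from rank 10 to rank 256 among the known families in Gb1WT and from rank 10 to rank 264 in Gb1np.

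All rows were then searched for the opposite pattern. No row of the 4062 had over 2000 reads in each of the 3 Gb seedling libraries without reads of the name miR529 and under 50 in each of those with them. At over 1500 reads in any of those libraries, miR529d was the 1 row found. This looser cutoff lay below the 2000 reads of miR529d in 1 library, so the search was bound to return that row and tests nothing about it. Gaps between replicates were common in the table: of 405 known names with over 100 reads in some library, 238 had over 100 in 1 replicate and 0 in another of the same group, and 54 did so at over 1000 reads. miR529 had reads in 1 replicate and none in another in 6 of the 12 groups.

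At pre-squaring in *G. barbadense*, 1 library of each line had miR529 reads, 27 in Gb2WT and 17 in Gb2np. At squaring the name changed with the line. Gb3WT held 69, 63 and 62 reads of miR529-5p and none of miR529. Gb3np held 31, 20 and 24 reads of miR529 and none of miR529-5p, a name with reads in no group but Gb3WT.

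In *G. hirsutum* all reads of the family were in the row miR529. Gh1WT had 0 reads in all 3 libraries. Gh1np had 71, 91 and 54. From pre-squaring on both lines held a low level, with 47, 0 and 48 reads in Gh2WT, 30, 32 and 45 in Gh2np, 45, 65 and 40 in Gh3WT, and 47, 0 and 43 in Gh3np.

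**Figure D5:**
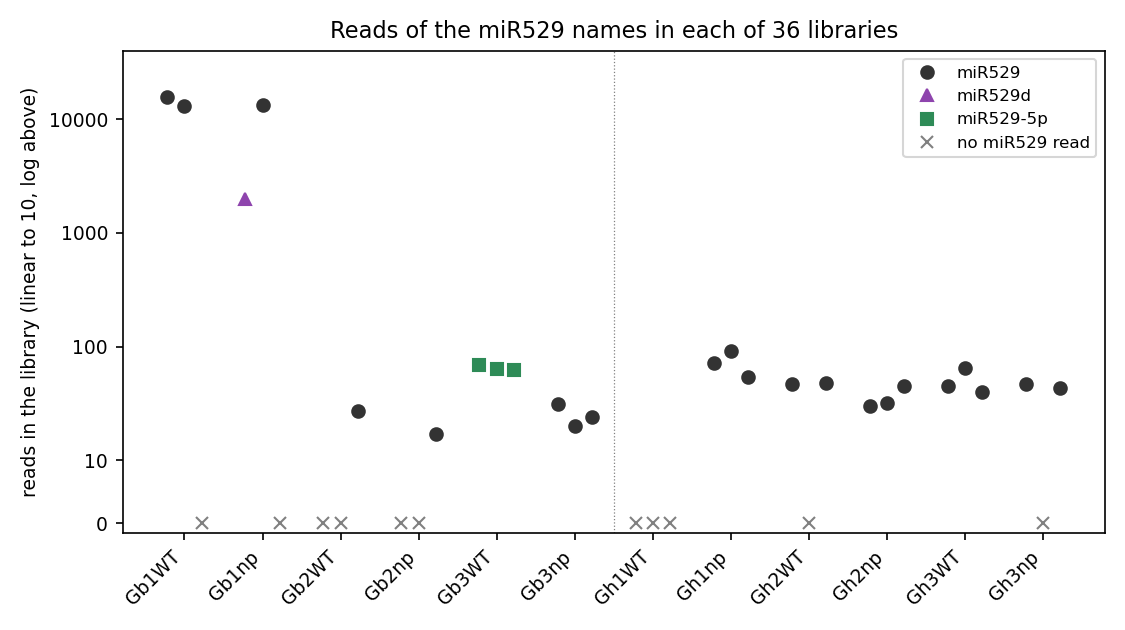
Reads of miR529 (circles), miR529d (triangle) and miR529-5p (squares) in each library, 3 a group, on an axis linear to 10 and logarithmic above it. Crosses mark the 11 libraries with no read of any of these names. The libraries over 1000 reads are all of Gb seedlings, next to replicates at 0.

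The family sum of miR529 could be fitted in 17 of the 20 comparisons, and edgeR called 0 of them. At an unadjusted p under 0.05 were 2 branch, 3 stage and 0 species comparisons. limma also called 0. Such a p was reached in edgeR by 40 of 436 families in Gh1np against Gh1WT and 225 of 398 in Gb3np against Gb3WT. In the 3 stage comparisons it was reached by 181 of 398 (Gb2WT against Gb1WT), 215 of 387 (Gb2np against Gb1np) and 196 of 377 (Gh2np against Gh1np). DESeq2, which called far more families than edgeR in the branch comparisons, called 1 of them, Gh1np against Gh1WT. There edgeR gave an adjusted p of 0.0251, and the pooled level of 27.4 RPM in Gh1np was at least 66.6-fold higher than the 0.411 RPM that 3 reads over the 3 Gh1WT libraries would give. That bound leaves out the spread between replicates, and an exact two-sided permutation test over the 6 libraries gave p = 0.10, the smallest it can give. It also covers only reads given a miR529 name. In the same Gh1WT libraries the name miR156k had 0 reads while miR156a-5p held 105977 to 145165. Whether naming has a part in the 0 of miR529 was not tested.

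In Gb3np against Gb3WT the sum was at -1.21 on the log2 scale (SE 0.27, edgeR adjusted p = 0.0136). The libraries stood at 15.3 to 22.9 RPM in Gb3np against 57.8 to 70.3 in Gb3WT, with no overlap. Of the 398 families tested there, 206 had an adjusted p under 0.05, and the median known family was at -0.50. The share of families without overlap was not computed. The 2 groups were read under different names, miR529 and miR529-5p. In Gb seedlings, where the sum was highest, Gb1np and Gb1WT overlapped (exact two-sided permutation p = 0.60). Below the filter on low counts were Gb2np against Gb2WT (exact permutation p = 1.00), Gh2WT against Gh1WT (p = 0.40, exact permutation) and Gb1WT against Gh1WT (p = 0.40, exact permutation).

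The level of neither family followed the other. Over the 12 groups, the Pearson correlation of their log2(mean RPM + 1) was -0.16. The known families whose group means ran most like those of miR535, out of 342 with at least 10 reads a library on average, were miR5298 (0.86), miR6106 (0.80) and miR8718 (0.80). All 3 had 0 reads in the 3 Gb3np libraries, where miR535 was lowest. By rank their correlations were 0.69, 0.57 and 0.66, and over the 36 single libraries 0.58, 0.59 and 0.75. miR156 came 14th with 0.68 and miR157 17th with 0.64. The order depended on the measure, since miR156 was at place 3 by rank correlation (0.69) and at place 8 over the 36 single libraries (0.66), and miR157 at places 38 (0.51) and 9 (0.63).

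Most like miR529 were miR9559 (0.74), miR8781 (0.65) and miR7756 (0.65). Over the 36 single libraries the values were 0.44, 0.29 and 0.48. miR9559 had reads in Gb1WT, Gb1np and Gb3WT alone, at 171.6 ± 29.4, 166.2 ± 18.5 and 361.8 ± 314.4 RPM (SD, n = 3). The points of these correlations share libraries and their totals, and they are given without a test.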

How the data were processed

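The small RNA table holds, for each miRNA name and library, the counts of reads the authors deposited. The authors trimmed adaptors, kept reads that SOAP2 matched perfectly to the *G. hirsutum* genome of CAAS, named known miRNAs against miRBase 21 with BlastN and predicted others with Mireap 0.1. The deposited mRNA files give unique read counts and RPKM per gene, computed by the authors, and were used for 6 tissue genes alone. All 36 small RNA libraries were mapped to their groups by column name.

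Names were summed by miR number, and RPM was computed from library totals (754812 to 4329247 reads, no pair of libraries identical). The study describes the 3 libraries of a group as biological replicates. How many plants went into a library is not given in the sources used here.

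Groups of 3 were compared with edgeR 4.0.16 in R 4.3.3 (quasi-likelihood F test, TMM, filterByExpr with a minimum count of 10), with Benjamini-Hochberg adjustment over all families tested. The thresholds (adjusted p under 0.001, absolute log2 fold change over 1) are those the study used with DESeq. Means over lines or stages and differences of branch effects came from 1 fit of all 36 libraries. Exact permutation tests were two-sided, with 0.10 the smallest possible p. A bound against a group at 0 uses 3 reads over the group. The edgeR, DESeq2 and limma tests of groups of 3 were checked on simulated data. Most signs were recovered there, for limma after centring on the families known to be unchanged. However, edgeR called hardly any changed family at these thresholds, so a family that was not called may still have changed. The contrasts of all 36 libraries and the permutation tests were not simulated.

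Alternatives were DESeq2 1.42.0, library totals, no filter, all 36 libraries together, limma 3.58.1 on log2(RPM + 1), a replicate block, known names only and leaving out each library. Fits without miR156 and miR157 were added after seeing the data. Named were all members, miR156, miR157, miR172 and, for each family, the 3 known families most like it by Pearson correlation over groups. The members and lists were chosen with earlier results of these data known.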

Additional observations from a re-analysis of the deposited data

Results flagged for a closer look

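The branch difference of miR535 at squaring was flagged because it differed between the 2 species by a test of the difference itself. The log2 change of nulliplex against normal branch in *G. barbadense* minus that in *G. hirsutum* was -1.91 (SE 0.31, edgeR adjusted p = 0.000314). Gb3np against Gb3WT was at -1.35 and Gh3np against Gh3WT at 0.66.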

How the results depend on the processing

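The fall of miR535 in Gb3np against Gb3WT kept its direction in all settings run. It lost the call with no filter (-1.33) and with the replicate block (-1.36, adjusted p = 0.0332), and leaving out 1 library gave -1.42 to -1.27, none of them called. The fall from Gb1np to Gb2np lost the call on library totals (-0.23), with limma on log2(RPM + 1) (-0.26), with no filter (-2.23), with the replicate block (-2.22), without miR156 and miR157 (-2.24) and on leaving out 1 library (-2.35 to -2.02). The other falls to pre-squaring gained the call with DESeq2 (-1.39 in Hai1, -1.73 in Huazhong 94-3130, -1.84 in 3798) and with all 36 libraries in 1 fit (-1.58, -1.95 and -1.93). Both settings called more families than the main fit in the stage comparisons, as counted below. In Hai1 the sign turned on library totals (0.43) and with limma (0.42). The mean over 4 lines lost the call on library totals (-0.41) and with limma (-0.43).

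Gb3np against Gh3np was called with DESeq2 (-1.30) and with all 36 libraries in 1 fit (-1.24). The branch effect in Gb minus that in Gh at squaring lost the call on leaving out a replicate number (-2.07 to -1.83) but not with the replicate block. Values near 0 changed sign. Gb1np against Gb1WT became 0.0078 with known names only, 0.0022 without miR156 and miR157, 0.012 with all 36 libraries in 1 fit and -0.17 to 0.076 on leaving out 1 library. Gb1np against Gh1np became -0.61 on library totals and with limma, and Gb2np against Gh2np became 0.065 and 0.071 with these. Leaving out 1 library gave -0.059 to 0.27 for the former, -0.25 to 0.031 for the latter and -0.32 to 0.018 for Gb1WT against Gh1WT. The mean branch effect in Gh became -0.077 with DESeq2, -0.065 on library totals, -0.093 with limma, -0.0014 with known names only and -0.068 to 0.098 on leaving out a replicate number. miR172a turned positive at pre-squaring on library totals (0.18 in Hai1, 0.12 in Xinhai16, 0.14 in Huazhong 94-3130) and with limma (0.17, 0.11 and 0.15), as did its mean over 4 lines (0.0076 and 0.0064). DESeq2 called miR529 in 1 branch comparison, Gh1np against Gh1WT (adjusted p = 7.2e-08). The cause of these changes was not tested.

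Same-numbered replicates of the groups compared deviated together little if at all (60 pairs in the 20 comparisons, correlations -0.17 to 0.23, 1 of them over 0.1, and 17 of 60 highest with their own number). The libraries were therefore taken to share only a number. In Gb1WT against Gh1WT and in Gb3WT against Gh3WT, each library was highest with its own number, at correlations of 0.027 to 0.097. A weak pairing in these species comparisons is thus not excluded. With the block, 0 families were called in the branch, stage and species comparisons, against 55, 108 and 10 without it. These counts are summed over 6 branch, 8 stage and 6 species comparisons, and the main fit tested 344 to 451 families in each. DESeq2 called 353, 775 and 625, limma 222, 635 and 503, and no filter 4 and 38 in the branch and stage comparisons. On library totals 220 were called in the stage comparisons, with all 36 libraries in 1 fit 165 in the stage and 113 in the species ones, and in the species ones 30 with known names only and 17 without miR156 and miR157. The 8 contrasts of all 36 libraries each tested 933 families in the main fit. Their 241 calls became 600 with DESeq2, 364 with no filter and 708 with limma.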
